A study of Homo sapiens with 9 samples.

Results

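The genes at the telomeric end of the long arm of chromosome 7, in band 7q36.3, were PTPRN2, NCAPG2, ESYT2, WDR60 and VIPR2, and they were examined together with the stretch beyond VIPR2. The 5 genes were followed through every region of γH2AX that overlapped chromosome 7 from 157331750 to 159130000 (genome build hg19), a stretch of 1798 kb, in 8 lists of regions. The lists held 1420 regions in this stretch, of 234983 in all. The chromosome end was selected on values of these data, the length of it that γH2AX regions covered in KO mock and in WT mock cells. Differences between those groups are therefore given as a description, without a test, and so are both comparisons of PMA with mock, which share a group with them.

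γH2AX was mapped by chromatin immunoprecipitation and sequencing in K562, an established human leukaemia line with erythroid and megakaryocytic features. The groups were FANCL knockout cells treated for 72 h with 5 nM PMA (KO PMA), wild-type cells under the same treatment (WT PMA), knockout cells under mock treatment (KO mock) and wild-type cells under mock treatment (WT mock), with 2 libraries each and 1 input library, from WT mock cells. FANCL is the ubiquitin ligase subunit of the Fanconi anaemia core complex, and PMA is a phorbol ester that makes K562 cells differentiate. The labels do not say whether the knockout is 1 clone or whether replicates were separate cultures, so any p rests on a spread that may be technical. No library measured FANCL, and the genotype rests on the labels.

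H2AX is a histone variant whose tail is phosphorylated by the damage-signalling kinases ATM, ATR and DNA-PK, and the phosphorylated form, γH2AX, spreads along chromatin on either side of a break. It is also found at shortened or unprotected telomeres and near stalled replication forks. PTPRN2 encodes phogrin, a phosphatase-like membrane protein of secretory granules. NCAPG2 encodes a subunit of condensin II, the complex that compacts chromosomes for mitosis. ESYT2 encodes an extended synaptotagmin, which tethers the endoplasmic reticulum to the plasma membrane. WDR60, now also named DYNC2I1, encodes an intermediate chain of the dynein that carries cargo back along cilia. VIPR2 encodes VPAC2, a receptor of vasoactive intestinal peptide.

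The sequences around the gene starts are shown because γH2AX regions stopped short of them. In none of 32 pairs of a gene (NCAPG2, ESYT2, WDR60 or VIPR2) and a library did a region lie over the start of the gene. The share of all gene starts that lie in regions was not computed here, so bare starts are not shown to be particular to these genes. RefSeq promoters of build GRCh38.p14, which run from 250 bases before to 50 after a start, were matched for 4 of the 5 genes; PTPRN2 was not shown. They lie at chr7:158704755-158705054 (minus strand) for NCAPG2, chr7:158829460-158829759 (minus strand) for ESYT2, chr7:158856308-158856607 (plus strand) for WDR60 and chr7:159144818-159145117 (minus strand) for VIPR2. These coordinates are in GRCh38.p14, and all others given here are in hg19. Capitals mark CpG dinucleotides, read 5′ to 3′ along the gene's own strand.
NCAPG2: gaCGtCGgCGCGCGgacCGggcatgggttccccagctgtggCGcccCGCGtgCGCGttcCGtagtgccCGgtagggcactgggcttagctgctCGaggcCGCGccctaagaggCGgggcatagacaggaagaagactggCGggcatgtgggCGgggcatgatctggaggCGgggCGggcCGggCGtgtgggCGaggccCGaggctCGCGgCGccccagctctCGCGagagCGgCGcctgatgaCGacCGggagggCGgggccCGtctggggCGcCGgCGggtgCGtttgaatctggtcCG
ESYT2: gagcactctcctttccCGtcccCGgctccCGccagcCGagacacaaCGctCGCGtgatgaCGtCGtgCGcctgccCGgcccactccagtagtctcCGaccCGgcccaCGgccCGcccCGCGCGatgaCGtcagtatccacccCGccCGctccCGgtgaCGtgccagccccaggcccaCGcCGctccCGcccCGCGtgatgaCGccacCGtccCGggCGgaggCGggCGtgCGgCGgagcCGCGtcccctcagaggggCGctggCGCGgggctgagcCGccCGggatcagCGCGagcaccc
WDR60: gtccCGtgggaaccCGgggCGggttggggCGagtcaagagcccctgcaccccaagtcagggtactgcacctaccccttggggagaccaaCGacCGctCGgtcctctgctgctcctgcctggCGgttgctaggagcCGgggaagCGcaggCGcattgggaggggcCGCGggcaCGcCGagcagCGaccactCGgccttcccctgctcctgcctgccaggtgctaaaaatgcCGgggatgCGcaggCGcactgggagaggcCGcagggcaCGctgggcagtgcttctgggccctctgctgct
VIPR2: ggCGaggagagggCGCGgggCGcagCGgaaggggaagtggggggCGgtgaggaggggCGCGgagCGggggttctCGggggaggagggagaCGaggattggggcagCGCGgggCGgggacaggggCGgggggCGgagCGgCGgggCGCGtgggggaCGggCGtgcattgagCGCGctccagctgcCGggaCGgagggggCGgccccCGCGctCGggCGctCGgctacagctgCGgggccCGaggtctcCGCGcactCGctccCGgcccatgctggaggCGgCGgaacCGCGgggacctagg
The promoters held 41 CpG dinucleotides in NCAPG2, 45 in ESYT2, 22 in WDR60 and 42 in VIPR2, against a median of 14 over 35116 RefSeq promoters of the same 300 bases. Of all these promoters, 37.7% held at least the 22 of WDR60. Their GC content was 74.3% in NCAPG2, 76.7% in ESYT2, 70% in WDR60 and 79.7% in VIPR2, against a median of 58.7%. The GC box GGGCGG, searched on both strands, matched 3 times in NCAPG2, 5 times in ESYT2, once in WDR60 and 5 times in VIPR2, and 45.0% of all these promoters held at least 1 match. A match is a run of letters, not a bound site.

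γH2AX regions covered the stretch least in KO PMA cells and most in WT mock cells. Their covered length was 113 and 94.9 kb in the KO PMA libraries, 262 and 218 kb in WT PMA, 179 and 167 kb in KO mock, and 428 and 413 kb in WT mock. No pair of groups overlapped, but the share of other stretches of this length in which that holds was not computed. The covered length of whole libraries ran in another order, with 42.5 and 34.5 Mb for KO PMA libraries, 31.3 and 24.8 Mb for WT PMA libraries, 17.2 and 17.3 Mb for KO mock libraries, and 9.63 and 8.18 Mb for WT mock libraries. The stretch thus made up 0.267 and 0.275% of the covered length in KO PMA, 0.835 and 0.881% in WT PMA, 1.04 and 0.965% in KO mock, and 4.44 and 5.05% in WT mock. On chromosome 7 alone it made up 5.42 and 5.49% in KO PMA, 10.0 and 10.8% in WT PMA, 15.7 and 15.5% in KO mock, and 44.6 and 50.4% in WT mock. Depth ran from 15.6 to 27.2 M tags, and the approximate efficiency of the immunoprecipitation in the file headers was 7.96 and 6.69% in KO PMA, 4.69 and 4.24% in WT PMA, 3.42 and 3.67% in KO mock, and 1.55 and 1.39% in WT mock. Each library also had its own tag threshold for calling regions. Per 10 M tags it ran from 7.12 to 7.69 in KO libraries and from 5.89 to 7.07 in WT libraries. The part of depth, threshold and efficiency in these values was not tested. The only input came from WT mock cells, so a change in DNA copy number of this chromosome end in the knockout or after PMA and a change in γH2AX cannot be told apart.

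**Figure D1:**
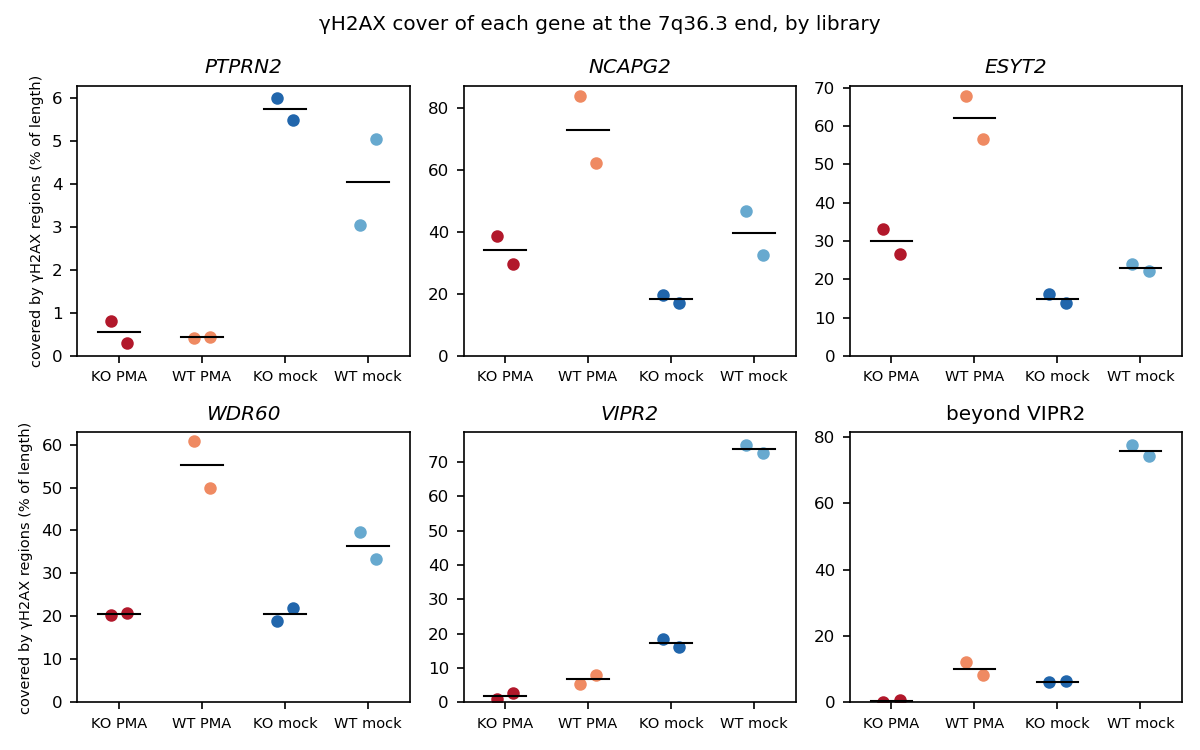
Share of the length of each gene, and of the stretch beyond VIPR2, that lay in γH2AX regions (y axis, %; each panel has its own scale from 0) in KO PMA, WT PMA, KO mock and WT mock libraries. Points are libraries and lines are means of 2. NCAPG2, ESYT2 and WDR60 are highest in WT PMA, VIPR2 and the stretch beyond it are highest in WT mock, and PTPRN2 is highest in KO mock.

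NCAPG2, ESYT2 and WDR60 lie side by side, and γH2AX regions covered more of each in WT PMA cells than in any other group, though as a share of the library's covered length, and in regions of 6-fold or more over input, WT PMA lay below WT mock. NCAPG2 held 28.6 and 21.9 kb in KO PMA cells, 61.6 and 45.9 kb in WT PMA, 14.6 and 12.6 kb in KO mock, and 34.4 and 23.8 kb in WT mock. Its groups were apart except WT mock, which overlapped KO PMA. ESYT2 held 32.6 and 26.4 kb in KO PMA cells, 66.9 and 56.0 kb in WT PMA, 15.8 and 13.6 kb in KO mock, and 23.8 and 21.8 kb in WT mock, with no overlap between any groups. WDR60 held 18.2 and 18.6 kb in KO PMA cells, 54.4 and 44.8 kb in WT PMA, 17.0 and 19.7 kb in KO mock, and 35.4 and 29.8 kb in WT mock. Its KO PMA libraries lay between the KO mock libraries. The share of all bins in which all groups lie apart was not computed, so these separations are a description. In WT PMA cells regions took up 73.1 ± 15.2% of NCAPG2, 62.3 ± 7.83% of ESYT2 and 55.3 ± 7.59% of WDR60 (mean ± SD, n = 2).

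Together these genes held 73.2 ± 8.91 kb in KO PMA against 165 ± 25.7 kb in WT PMA, and 46.6 ± 1.06 kb in KO mock against 84.5 ± 12.8 kb in WT mock (SD, n = 2 each). The log2 difference of KO PMA from WT PMA, on log2(covered bp + 1000), was −1.06 (SE 0.28) for NCAPG2, −1.03 (SE 0.20) for ESYT2 and −1.38 (SE 0.14) for WDR60. Each had an exact two-sided permutation p of 0.333, the smallest that 6 labellings of 2 against 2 libraries allow, so this test cannot pass 0.05. Both KO PMA libraries lay below both WT PMA libraries in all 3 genes, as they did in 35.2% of all 9552 bins of 100 kb of the genome. The differences were also negative as a share of each library's covered length, but each turned to higher when regions had to reach 6-fold over input, at 0.66, 0.64 and 0.35. Only 4.66 and 6.65 kb of the whole stretch in KO PMA, against 7.44 and 11.3 kb in WT PMA, lay in such regions.

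Between PMA and mock, which is described without a test, the log2 difference in WT cells was 0.87 (SE 0.33) for NCAPG2, 1.39 (SE 0.14) for ESYT2 and 0.59 (SE 0.18) for WDR60, but −0.78, −0.26 and −1.06 as a share of the library's covered length and −0.93, −1.12 and −0.65 in regions of 6-fold or more. In KO cells the difference was 0.84 (SE 0.21) for NCAPG2, 0.95 (SE 0.18) for ESYT2 and 0.01 (SE 0.10) for WDR60. As a share it was −0.31, −0.20 and −1.14. The covered length of NCAPG2 and ESYT2 was thus larger under PMA in both genotypes, while their share of the library was smaller.

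The longest regions in these genes were those of WT PMA cells, while the tag density inside regions lay in a narrow range. The longest of the stretch in the KO PMA libraries spanned 3268 and 3324 bp, both in ESYT2. In WT PMA replicate 1 a single region of 18607 bp ran through NCAPG2 from 158477429 to 158496036 at 3.47-fold over input (the authors' value), and replicate 2 held one of 11350 bp in ESYT2 at 2.98-fold. Regions 5 kb or longer were absent from the whole stretch in KO PMA and KO mock, and there were 14 and 6 in WT PMA and 19 and 17 in WT mock. Whole libraries held 667 and 394 of that length in KO PMA, 85 and 43 in WT PMA, 42 and 47 in KO mock, and 66 and 66 in WT mock. The normalised tag density inside regions of the 3 genes was 18.4 and 18.5 tags per kb and 10 M tags in KO PMA, 19.79 and 20.03 in WT PMA, 19.2 and 20.6 in KO mock, and 17.4 and 17.3 in WT mock. The median fold over input of regions of the stretch ran from 3.71 to 4.10 over the 8 libraries. Calling required a minimum of tags and of fold over input, so density and fold inside regions do not compare γH2AX levels between groups.

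Positions were partly shared between genotypes after PMA. Of the bases covered in a KO PMA library within these 3 genes, 68.3 to 89.2% were also covered in a WT PMA library, and 31.4 to 38.8% of the WT PMA bases were covered in a KO PMA library, over 4 pairs of libraries. The KO PMA replicates shared 47.5% of replicate 1 and 56.5% of replicate 2 with each other, and the WT PMA replicates 66.8 and 83.4%. The WT PMA libraries covered 69.9 and 56.0% of the length of the 3 genes, and the KO PMA libraries 30.4 and 25.5%. The part that these libraries cover in common grows with the length covered, so the shares are a description.

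Regions began at a distance from the gene starts, and in NCAPG2, ESYT2 and WDR60 they covered a larger share of the gene body than of its first 5 kb. The first region downstream of the start lay between 1.24 and 5.03 kb away in NCAPG2, between 1.55 and 19.6 kb in ESYT2, between 1.13 and 12.1 kb in WDR60 and between 0.327 and 5.50 kb in VIPR2, over the 8 libraries. On the other side, the nearest region was at least 2.30 kb upstream of NCAPG2, 3.21 kb of ESYT2, 4.18 kb of WDR60 and 2.29 kb of VIPR2. In NCAPG2, ESYT2 and WDR60 together, the first 5 kb were covered to 10.9 and 15.1% in KO PMA, 38.9 and 36.1% in WT PMA, 5.28 and 3.33% in KO mock, and 18.7 and 5.71% in WT mock. From 5 to 30 kb inside the genes the cover was 36.2 and 35.2% in KO PMA, 79.0 and 63.2% in WT PMA, 18.0 and 18.3% in KO mock, and 31.5 and 33.8% in WT mock. Each of the 8 libraries was higher inside these 3 genes than in their first 5 kb. VIPR2 was lower from 5 to 30 kb than in its first 5 kb in 5 of 8 libraries. Its first 5 kb were covered to 0 and 10% in KO PMA, 20% and 16.9% in WT PMA, 34.3 and 10% in KO mock, and 80.4 and 74.6% in WT mock. From 5 to 30 kb it was covered to 2 and 0% in KO PMA, 6 and 2% in WT PMA, 12.4 and 4% in KO mock, and 80.9 and 79.4% in WT mock. The space from ESYT2 to WDR60, into which both starts face, held 2.85 and 2.35 kb in KO PMA cells, 1.80 and 2.50 kb in WT PMA, 0.778 and 0.50 kb in KO mock, and 3.12 and 2.79 kb in WT mock. A base outside a region is one that the caller did not pass, not one without γH2AX.

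**Figure D2:**
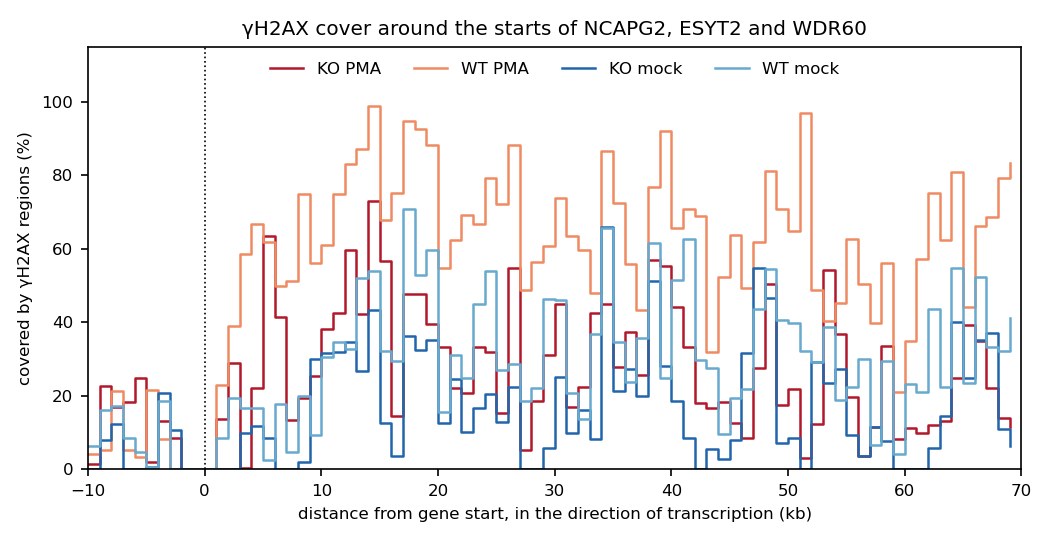
Share of bases in γH2AX regions (y axis, %) in steps of 1 kb by distance from the gene start (x axis, kb, positive into the gene), over NCAPG2, ESYT2 and WDR60 and both libraries of each group. No group has any cover over the start itself, and inside the genes WT PMA lies above the other groups at most distances.

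VIPR2 and the stretch beyond it carried γH2AX over most of their length in WT mock cells and over little of it in the other groups. VIPR2 held 1.0 and 3.28 kb in KO PMA cells, 6.32 and 9.32 kb in WT PMA, 21.5 and 18.7 kb in KO mock, and 87.4 and 84.7 kb in WT mock. In WT mock cells this was 73.7 ± 1.63% of the gene, against 17.2 ± 1.66% in KO mock (SD, n = 2 each). The 192 kb beyond VIPR2, which reach the last positions called on chromosome 7, held 0.50 and 1.39 kb in KO PMA cells, 23.5 and 15.6 kb in WT PMA, 11.7 and 12.2 kb in KO mock, and 149 and 143 kb in WT mock. No groups overlapped in either place, and the order of WT PMA and KO mock was opposite between VIPR2 and the stretch beyond it. The share of all bins in which all groups lie apart was not computed, nor that for WT PMA against KO mock. The gap from WDR60 to VIPR2 held 14.6 and 8.98 kb in KO PMA cells, 21.8 and 21.2 kb in WT PMA, 24.6 and 19.9 kb in KO mock, and 50.2 and 42.5 kb in WT mock.

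The log2 difference of KO PMA from WT PMA was −1.57 (SE 0.60) for VIPR2 and −3.41 (SE 0.44) beyond it, each with an exact two-sided permutation p of 0.333, the smallest possible. It stayed negative under every setting tried for either. As a description, KO mock differed from WT mock by −2.05 in VIPR2 and −3.51 beyond it, and WT PMA from WT mock by −3.32 and −2.86. These differences between KO mock and WT mock, and between WT PMA and WT mock, turned positive when regions had to reach 6-fold over input, at 0.29 and 0.34 and at 1.53 and 0.08. The longest WT mock regions spanned 15235 and 15501 bp from 159109430 and 159109205, at 4.46- and 4.57-fold over input. Regions of WT PMA and KO mock beyond VIPR2 lay mostly where WT mock also had regions. Of their covered bases, 88.5 to 98.3% in WT PMA and 82.4 to 93.5% in KO mock were also covered in a WT mock library, which itself covered 74.3 or 77.5% of that stretch. The KO PMA libraries held only 0.50 and 1.39 kb there, all of it also covered in WT mock, with 0 kb shared between the KO PMA replicates. WT mock replicates shared 88.0% of replicate 1 and 91.8% of replicate 2 there.

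PTPRN2, the longest of the genes at 1049 kb, carried scattered short regions in mock-treated cells and almost none after PMA. It held 8.52 and 3.21 kb in KO PMA cells, 4.44 and 4.66 kb in WT PMA, 62.9 and 57.4 kb in KO mock, and 32.0 and 52.9 kb in WT mock. The PMA groups overlapped each other and lay below both mock groups. This was 0.559 ± 0.358% of the gene in KO PMA against 0.433 ± 0.0147% in WT PMA, and 5.73 ± 0.366% in KO mock against 4.05 ± 1.404% in WT mock (SD, n = 2 each). KO PMA differed from WT PMA by 0.19 on the log2 scale (SE 0.59, exact permutation p = 1.0, n = 2 each), which turned to −0.40 without KO PMA replicate 1, to −0.29 when regions had to reach 6-fold over input and to −0.27 as a share of the library. KO mock lay above WT mock by 0.53 (SE 0.36), but by −0.06 when regions shorter than 1000 bp were left out and by −0.43 as a share. PMA differed from mock by −3.27 in KO cells and by −2.93 in WT cells, in the same direction under every setting tried.

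Cover in PTPRN2 was uneven along the gene. When it was divided into 4 equal parts, the part nearest to NCAPG2 held 3.5 and 2.21 kb in KO PMA cells, 3.94 and 4.66 kb in WT PMA, 27.7 and 23.1 kb in KO mock, and 25.5 and 45.2 kb in WT mock. The part at its centromeric end held 1.65 and 1.0 kb in KO PMA cells, was listed at 0 in both WT PMA libraries, and held 12.2 and 14.3 kb in KO mock and 2.0 and 1.0 kb in WT mock. KO mock libraries thus carried regions along the whole gene, and WT mock libraries mainly in the part nearest to NCAPG2. In KO mock, 99 and 87 regions overlapped PTPRN2. The replicates shared 16.2% of the covered bases of replicate 1 and 17.7% of replicate 2, against 40.1 and 41.4% in NCAPG2, ESYT2 and WDR60. These libraries covered 5.99 and 5.48% of PTPRN2 but 18.1 and 17.5% of the other genes named. Sharing grows with cover, so the shares do not rank how well the replicates repeat. The region of KO mock with the highest fold called in both replicates lay in PTPRN2 from 157900614 to 157901312, at 18.8- and 14.3-fold, and that of WT mock from 158264960 to 158265947, at 11.7- and 19.9-fold. Of the PMA groups the highest lay outside the gene, at 6.11- and 6.39-fold in KO PMA from 158411853 to 158412353, before NCAPG2, and at 9.23- and 7.12-fold in WT PMA from 159086427 to 159087111, beyond VIPR2.

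**Figure D3:**
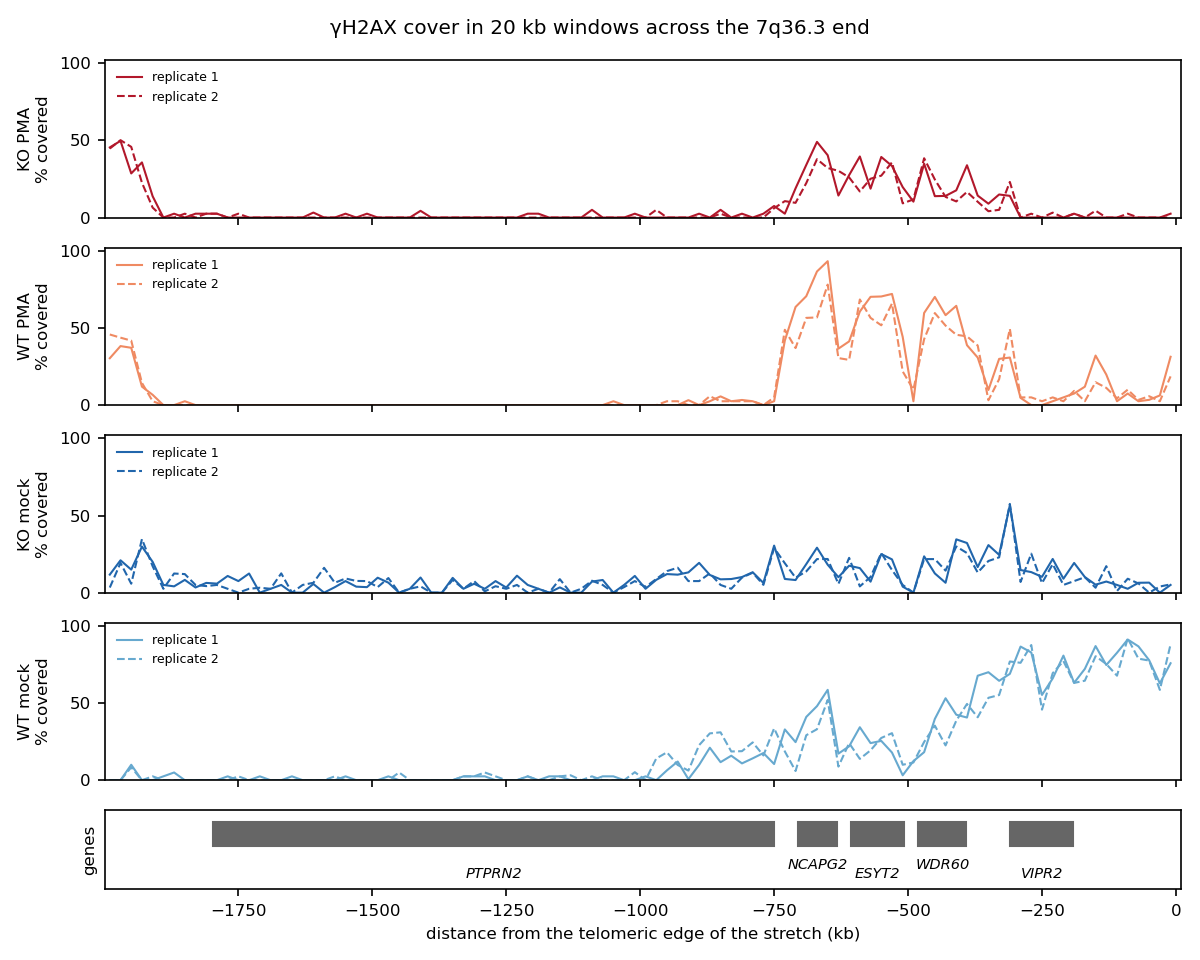
Share of each window of 20 kb that lay in γH2AX regions (y axis, %) by distance from the telomeric edge of the stretch (x axis, kb), for replicate 1 (solid) and replicate 2 (dashed) of KO PMA, WT PMA, KO mock and WT mock, with the genes as grey bars. Cover in WT mock is highest at the telomeric side, in WT PMA over NCAPG2, ESYT2 and WDR60, and PTPRN2 is nearly bare in both PMA groups.

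In a limma fit over the genome with all 8 libraries, the part of the stretch from NCAPG2 to the chromosome end was lower in KO PMA than in WT PMA cells. Of 9552 bins of 100 kb fitted in limma with all 8 libraries, 21.9% were lower and 15.9% higher in KO PMA at a Benjamini-Hochberg adjusted p under 0.05. Of the 19 bins of the stretch, 8 (42.1%) were lower and 1 was higher. The 8 lowered bins were the last 8 in a row, from 158400001 to 159200000, with log2 differences from −2.59 to −0.95 and limma adjusted p from 0.00265 to 0.0193. The largest fall lay in the bin from 158900001, which holds the start of VIPR2, with 0.50 and 1.39 kb in the KO PMA libraries against 14.4 and 7.45 kb in the WT PMA libraries (log2 −2.59, SE 0.40, limma adjusted p = 0.00676). Next came the bin from 159100001 (−2.45, SE 0.35, adjusted p = 0.00552) and that from 159000001 (−2.27, SE 0.25, adjusted p = 0.00265). A region can span 2 bins, so bins side by side are not independent. The fit takes its spread partly from the KO mock and WT mock libraries, whose values selected the chromosome end. The genes and the stretch were also chosen with earlier results of these data known, so these adjusted p are not an independent test. When only the PMA libraries were fitted, 1 of the 8 lowered bins passed.

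All of the other 11 bins lay over PTPRN2, in whole or in part. The bin from 157300001 begins before PTPRN2 and runs over its centromeric end. In both KO PMA libraries part of the cover of this bin lay before the gene. Within PTPRN2 as a whole, the regions of the KO PMA libraries shared 0 kb. The bin was higher in KO PMA, with 1.5 kb in each KO PMA library and 0 in both WT PMA libraries (1.32, SE 0.39, limma adjusted p = 0.0461). That call rests on 1.5 kb, and the adjusted p of the bin was 0.137 to 0.156 without 1 of the PMA libraries and 0.0831 or 0.0834 without 1 of the WT mock libraries. The next largest positive differences, 0.55 in the bin from 157500001 and 0.50 in that from 157900001, did not pass (adjusted p = 0.434 and 0.346). The number of lowered bins was 3 after each library was centred on its median, 4 with one tag threshold for all libraries, 1 when regions had to reach 6-fold and 1 when the fit held only the PMA libraries. It was 5 without KO PMA replicate 1 or without WT PMA replicate 1.

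**Figure D4:**
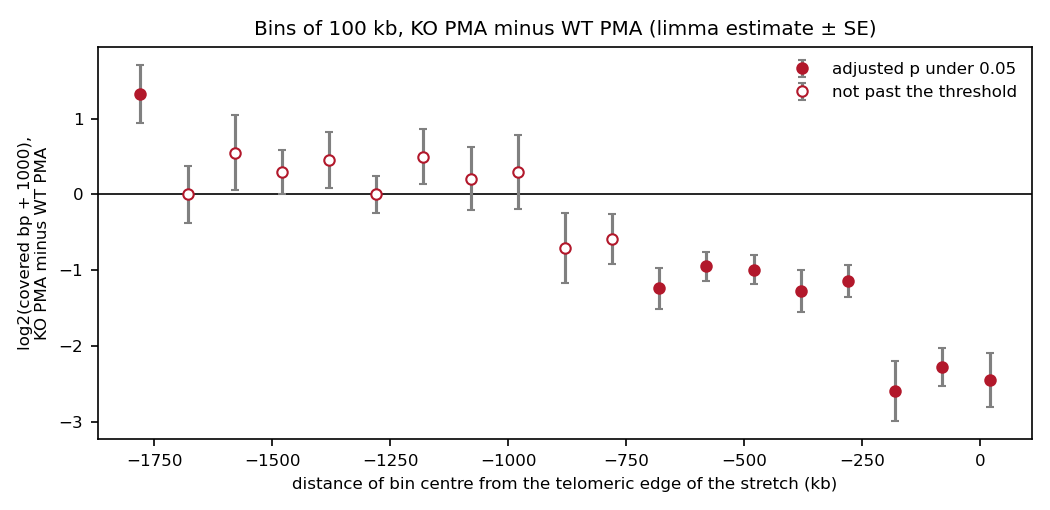
Difference of KO PMA from WT PMA in log2(covered bp + 1000) of each 100 kb bin (y axis, limma estimate with its SE) by distance of the bin centre from the telomeric edge of the stretch (x axis, kb). Filled points passed an adjusted p of 0.05 over 9552 bins, and the 8 bins nearest to the chromosome end lie between −2.59 and −0.95.

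Counted without a fit, both KO PMA libraries lay below both WT PMA libraries in 9 of the 19 bins and above them in 1, where 35.2 and 23.7% of all bins did so. The other comparisons over these bins are descriptions. Both KO mock libraries lay below both WT mock libraries in 9 of the 19 bins and above them in 9, where 10.9 and 32.9% of all 9552 bins did. Both WT PMA libraries lay below both WT mock libraries in 13 bins and above in 3, where 4.93 and 51.1% of all bins did. Both KO PMA libraries lay below both KO mock libraries in 16 bins and above in 3, where 12.7 and 33.1% of all bins did. The choice of the chromosome end used KO mock against WT mock, and both comparisons with PMA share libraries with it.

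The stretch just centromeric to these genes did not follow the same order. Over the same length before PTPRN2, from 155533500 to 157331749, regions covered 105 and 101.3 kb in KO PMA cells, 124 and 106 kb in WT PMA, 88.9 and 95.9 kb in KO mock, and 23.8 and 16.5 kb in WT mock. WT mock was lowest there and highest over the 5 genes. The log2 ratio of the gene stretch to its neighbour was 0.10 and −0.09 in KO PMA, 1.07 and 1.04 in WT PMA, 1.0 and 0.79 in KO mock, and 4.11 and 4.56 in WT mock. These ratios were not tested between groups.

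**Figure D5:**
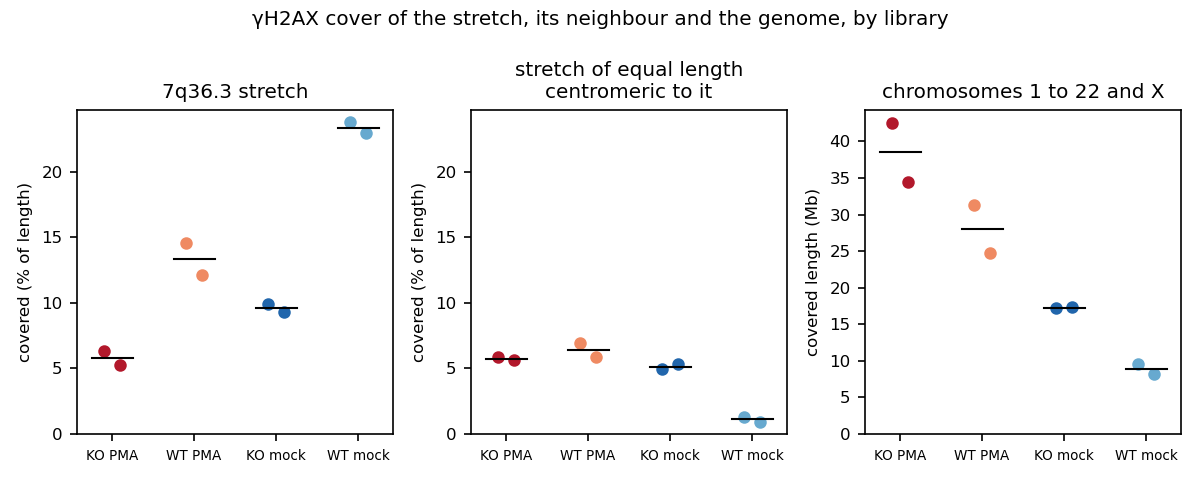
Share of the 7q36.3 stretch and of the equally long stretch centromeric to it that lay in γH2AX regions (left and middle, y axis, %, same scale) and covered length of whole libraries (right, Mb), for KO PMA, WT PMA, KO mock and WT mock. Points are libraries and lines are means of 2. WT mock is highest in the left panel and lowest in the middle and right panels.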

How the data were processed

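Regions of γH2AX were called by the authors with HOMER, per the file headers, separately in each of the 8 libraries and always against the WT mock input. Windows of 500 bp had to be at least 2-fold over input (Poisson p of 0.0001) and were stitched into regions, with at most 1 tag per bp. CASAVA 1.4, BWA and build hg19 are named in the submitters' processing notes. The signal the authors deposited counts a region's tags per 10 M of its library, and the deposited tag count is unscaled in 5 libraries and scaled to the input in 3. The deposited fold is a ratio to input tags scaled to one depth, the deposited score is the caller's peak tag number, and the deposited p-value is the caller's own. Tag thresholds were set library by library, from 5.89 to 7.69 tags per 10 M, so deeper libraries could call weaker windows. Between 2782 and 19418 tags lay in regions of the stretch.

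Covered length is the number of bp inside regions, cut at the gene borders. The autosomes (1 to 22) and X were divided into bins of 100 kb, and bins that were covered in at least 2 libraries were fitted with limma 3.58.1 in R 4.3.3 (mean-variance trend, 4 groups, log2(covered bp + 1000), all tests two-sided). The fit was checked on simulated data with the same spread in every bin and larger differences than those of the stretch. That check does not cover differences of the size found here. Single values were compared by exact permutation. This scale understates changes of little-covered features. Other steps used Python 3.11.15. Gene spans were those given with the selection rule, and the start of a gene was its end of the span by the RefSeq strand. Of a group's regions called in both libraries, the highest by the lower fold were named, and of bins the 3 largest differences in each direction. The genes, stretch and alternatives were chosen with earlier results of these data known. Of WDR60 and VIPR2, the RefSeq promoter nearest in spacing to the gene span was used.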

Additional observations from a re-analysis of the deposited data

Results flagged for a closer look

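In covered length, the gap from PTPRN2 to NCAPG2 moved in opposite directions after PMA in the 2 genotypes, in every library. It held 3.79 and 3.84 kb in KO PMA against 7.32 and 9.44 kb in KO mock, a log2 difference of −0.95, and 16.1 and 15.7 kb in WT PMA against 11.2 and 8.55 kb in WT mock, a difference of 0.64. The gap from ESYT2 to WDR60 did so the other way round, with a log2 difference of 1.14 in KO cells and of −0.34 in WT cells, and at most 3.12 kb in any library. Neither difference between the genotypes was tested. The share of the library's covered length was not computed for these gaps. Taking the share shifts every part of a comparison alike. It moved PMA minus mock for the whole stretch from −0.81 to −2.46 in WT cells and from −0.73 to −1.88 in KO cells. The same shift makes the 0.64 of the gap from PTPRN2 to NCAPG2 negative, so its directions are not opposite as a share. As such a share, NCAPG2, ESYT2 and WDR60 were lower under PMA in both genotypes, so the opposite directions are shown for covered length only.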

How the results depend on the processing

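On log2(covered bp + 1000), the stretch differed by −1.20 between KO PMA and WT PMA, −1.28 between KO mock and WT mock, −0.81 between WT PMA and WT mock, and −0.73 between KO PMA and KO mock. Leaving out 1 replicate kept these within −1.33 to −1.07, −1.33 to −1.23, −0.94 to −0.68 and −0.86 to −0.60. Among regions of at least 6-fold over input they were −0.63, 0.19, −0.69 and −1.52, so the second reversed, and with regions of at least 1000 bp −1.91, −2.21, −0.85 and −0.55. As a share of the library's covered length they were −1.66, −2.24, −2.46 and −1.88. With one tag threshold, judged by each region's peak and keeping its whole length, the second was −1.06 and the last −0.98. The cause of these shifts was not tested.

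Lowered bins numbered 8, and 1 with regions of at least 6-fold, 4 with one tag threshold, 3 after centring and 1 with only the PMA libraries fitted; leaving out 1 replicate gave 5 to 8. All lowered bins under these settings were among the 8. The 1 raised bin became 0 with one tag threshold, no filter on bins or the replicate block, and with regions of at least 1000 bp, where 11 bins of the stretch were tested and it was not among them, and was 0 to 1 with 1 replicate left out. With the replicate number as a block the lowered bins stayed 8 and the differences of the stretch did not move, at −1.20, −1.28, −0.81 and −0.73. Same-numbered libraries deviated together with correlations of only −0.0585 to 0.164 over 9552 bins, so the numbers were not taken as pairs.

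By gene, differences that turned sign at 6-fold were those of KO PMA from WT PMA in PTPRN2 (−0.29), NCAPG2 (0.66), ESYT2 (0.64) and WDR60 (0.35), of KO mock from WT mock in WDR60 (0.19), VIPR2 (0.29) and beyond it (0.34), of WT PMA from WT mock in NCAPG2 (−0.93), ESYT2 (−1.12), WDR60 (−0.65), VIPR2 (1.53) and beyond it (0.079), and of KO PMA from KO mock in WDR60 (−0.49) and VIPR2 (0.21). As a share, KO PMA against WT PMA turned in PTPRN2 (−0.27), WT PMA against WT mock turned in NCAPG2 (−0.78), ESYT2 (−0.26) and WDR60 (−1.06), KO PMA against KO mock in NCAPG2 (−0.31), ESYT2 (−0.20) and WDR60 (−1.14), and KO mock against WT mock in PTPRN2 (−0.43, and −0.063 at 1000 bp). The WDR60 difference of KO PMA from KO mock, 0.01, also turned under 4 other settings, to at most −0.14 in size. A region list gives no depth outside regions, so weak γH2AX there was not measured.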
